A study of Homo sapiens with 2 samples.

Results

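The cytosolic ribosomal protein genes were followed as a family of 78 genes among the 30796 features of the data set. Members were taken by symbol: RPSA, RPLP0, RPLP1, RPLP2, and every RPL or RPS symbol with a number and at most a single letter A or X, plus RPS27A and RPL10L, with pseudogenes and the RPS6 kinases left out. The rule used no measured value, though it was set with earlier results of these data known. Of the 78 members, 77 had at least 20 unique molecular identifiers (UMIs) over both libraries, and RPL10L, with 0 and 1 UMI, did not. The family splits into 31 measured members of the small subunit and 46 of the large subunit.

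MDAMB468 and CAL51 are established human triple-negative breast cancer cell lines, both untreated as far as the labels say, and each was measured in 1 Drop-seq library. Drop-seq captures the polyadenylated RNA of a cell in an oil droplet on a bead, where primers add the cell's barcode and a UMI before the 3′ end is read, so each UMI counts 1 captured molecule and counts are not divided by gene length. The MDAMB468 library held 306 barcodes with 5501900 UMIs (median 10016.5 per barcode) and the CAL51 library 1346 barcodes with 16223444 UMIs (median 8635), after 31 CAL51 barcodes were set aside. With 1 library per line no difference could be set against variation between cultures, no test across samples was possible, and every interval given is a 95% interval that covers counting error only.

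A ribosome is built from ribosomal RNA and one copy of most ribosomal proteins, with the acidic stalk proteins RPLP1 and RPLP2 present in more. The small subunit binds messenger RNA and reads the codon, and the large subunit joins amino acids. Messenger RNAs of ribosomal proteins in vertebrates are known for starting with a C followed by a run of pyrimidines (the terminal oligopyrimidine tract), through which growth signals control their translation.

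The labels were checked against genes known to differ between the lines. EGFR, amplified in MDAMB468, stood at 459 CPM (UMIs scaled to a line total of 1000000) in MDAMB468 and 12.1 CPM in CAL51, and RB1, lost in MDAMB468, had 18 UMIs against 1266. As epithelial genes, EPCAM, a surface protein, stood at 867 and 283 CPM and KRT8, a keratin, at 764 and 919 CPM, so they differed in opposite directions. Markers of fibroblasts summed to 25 and 27 UMIs, of leukocytes to 3 and 6, of endothelium to 6 and 6, and of red cells to 0 and 2.

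The libraries were not fully separate. The same barcode sequence occurred under both line names in 31 cases. The 31 copies labelled CAL51 held 135240 UMIs and their 31 MDAMB468 partners 2181232 UMIs. EGFR stood at 370 CPM in the copies, against 473 CPM in the partners and 12.1 CPM in the other CAL51 barcodes. The copies were therefore kept out of the CAL51 values and are given beside the results as a separate set. They offer a second reading of the family in barcodes with a high EGFR level, taken from the library labelled CAL51. A further 64 MDAMB468 barcodes and 7 CAL51 barcodes differed by 1 base from another barcode of their line that had 5 times their UMIs or more, and are called satellites here.

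The start sites of members show the feature the family is known for. RefSeq promoters (GRCh38.p14) were found for 63 members, of which 10 have more than 1 listed start, and the first listed start is used unless stated. The windows below hold 15 bases before the first transcribed base and 15 from it onward, 5′ to 3′ on the gene's strand, and capitals mark an unbroken run of at least 6 C or T over the first base. They are shown for the 6 members with the highest line differences and for 2 with low ones.
RPL36A, chrX:101390996-101391025, plus strand: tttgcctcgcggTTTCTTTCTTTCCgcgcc
RPL38, chr17:74203663-74203692, plus strand: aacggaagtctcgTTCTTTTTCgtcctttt
RPS25, chr11:119018329-119018358, minus strand: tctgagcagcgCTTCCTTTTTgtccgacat
RPL10, chrX:154398050-154398079, plus strand: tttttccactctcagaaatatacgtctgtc
RPS3, chr11:75399503-75399532, plus strand: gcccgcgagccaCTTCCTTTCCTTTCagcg
RPL39, chrX:119791616-119791645, minus strand: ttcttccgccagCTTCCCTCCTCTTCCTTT
RPLP1, chr15:69452803-69452832, plus strand: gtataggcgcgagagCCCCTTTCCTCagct
RPS26, chr12:56041903-56041932, plus strand: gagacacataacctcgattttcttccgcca
Of these 8 windows, those of RPL10 and RPS26 hold no such run, while another listed start of RPL10 has a run of 13 bases over its first base. A run of at least 6 pyrimidines over the first base was present in 43 of 63 members (68.3%), against 7.51% of the 27305 genes in the table and 7.25% of its 69 mitochondrial ribosomal protein genes. With every listed start counted, it was present in 48 of 78 starts of members (61.5%) and 7.41% of 35116 starts in all. The first base was C in 73.0% of members and in 14.99% of all genes. The letters CGGAAG, on either strand within 100 bases before the start, occurred in 41.3% of members, 10.4% of all genes and 39.1% of mitochondrial ribosomal protein genes, and TATAAA 11 to 40 bases before the start in 4.76% of members and 2.59% of all genes. The line difference was taken as log2 of CPM + 1, MDAMB468 minus CAL51. By the first listed start, its median was 0.40 in the 43 members with a run and 0.22 in the 19 measured members without. Both sets held values on either side of 0 (from -0.77 to 1.58 and from -0.57 to 1.45). The set without includes RPL10, RPL11, RPL13, RPL19 and RPS27A, which have a run of 10 to 13 bases at another listed start. Its highest value, 1.45, is that of RPL10.

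Together, the members took 16.4% (16.38 to 16.44) of all UMIs in MDAMB468 and 12.4% (12.40 to 12.43) in CAL51. The summed level was 1.32-fold higher in MDAMB468 (1.319 to 1.325). In the 31 CAL51-labelled copies the share was 15.4% (15.2 to 15.6), near the 15.8% of their MDAMB468 partners. The share thus stood above that of the other CAL51 barcodes in both readings, which are not separate evidence. Both subunits took part: the small subunit held 44.1% of member UMIs in MDAMB468 and 42.9% in CAL51.

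The same order was seen barcode by barcode. After each barcode was thinned to 2500 UMIs, members took a median of 16.1% in MDAMB468 (quartiles 14.5 and 18.0, range 4.84 to 24.2) and 12.3% in CAL51 (quartiles 10.7 and 14.0, range 2.64 to 20.04). The ranges overlapped, but 95.8% of the 306 MDAMB468 barcodes lay above the CAL51 median and 6.84% of the 1346 CAL51 barcodes above the MDAMB468 median. Unthinned medians were 16.3% and 12.3%. In MDAMB468 the median was 14.5% in barcodes under 5000 UMIs, 16.7% from 5000 to 10000 and 16.8% at 10000 and more, and in CAL51 12.1%, 12.3% and 12.4%. The 64 MDAMB468 satellites had a median of 14.1%, and the other 242 barcodes 16.8%. Barcodes with a higher percent of mitochondrial UMIs had slightly lower member shares. Spearman rho was -0.21 over 306 MDAMB468 barcodes and -0.27 over 1346 CAL51 barcodes, both measures being parts of the same total. Barcodes are not replicates, and these values describe each library.

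**Figure D1:**
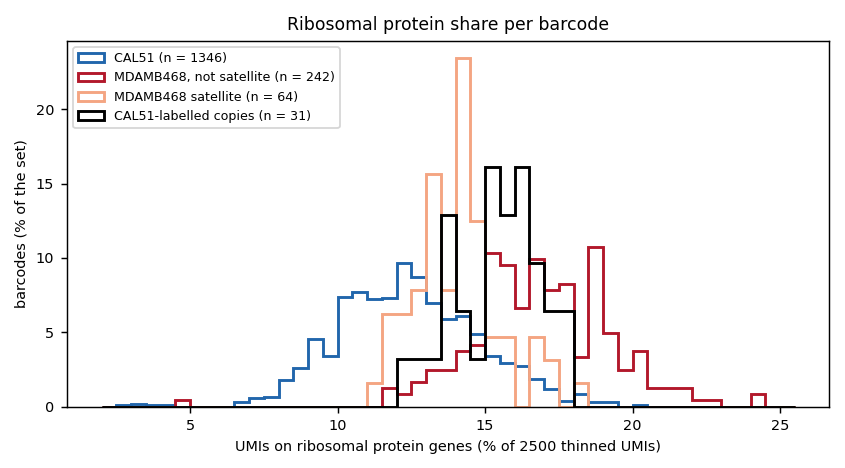
Ribosomal protein share per barcode: the x axis is the percent of 2500 thinned UMIs on member genes and the y axis the percent of barcodes of each set in bins of equal width. The MDAMB468 barcodes that are not satellites (median 16.8%) lie to the right of CAL51 (12.3%), and the satellites (14.1%) and the CAL51-labelled copies (15.6%) lie between those medians.

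The members did not shift by a common factor. Differences are given as log2(CPM + 1) in MDAMB468 minus the same in CAL51. The median over the 77 members was 0.39 (quartiles -0.11 and 0.75, SD over members 0.57), against a median of -0.13 over all 15347 features with at least 20 UMIs and -0.21 over the 2364 features that reached 100 CPM in the higher line. Higher values in MDAMB468 were found for 53 members and higher values in CAL51 for 24. The share of all features by sign was not counted, though their median of -0.13 places most of them on the CAL51 side. A difference of at least 1.5-fold toward MDAMB468 was reached by 28 members (36.4%), where 24.6% of all features and 21.4% of those at 100 CPM reached it. Toward CAL51 it was reached by 2 members (2.60%), RPLP1 and RPS2, where 31.7% of all features and 33.8% of those at 100 CPM did. A 2-fold difference toward MDAMB468 was reached by 12 members (15.6%), close to the 15.8% of all features and 13.4% of those at 100 CPM. The small subunit had a median difference of 0.41 (13 of 31 members at least 1.5-fold toward MDAMB468 and 1 toward CAL51) and the large subunit 0.33 (15 of 46 and 1).

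With the family's own median taken out, 12 members (15.6%) lay at least 1.5-fold above it and 14 (18.2%) at least 1.5-fold below. Of all features, 28.1% lay that far above and 27.3% that far below their own median difference, and of those at 100 CPM 28.3% and 25.8%. Both shares of members were below those of all features. The order of member levels was only partly shared by the lines, with a Spearman rho of 0.49 over 77 members. In counted molecules members ranged from 751 to 4996 CPM in MDAMB468 (median 1814, coefficient of variation 43.5%) and from 481 to 3975 CPM in CAL51 (median 1501, 39.8%). Of the 50 features with most UMIs, 25 were members in MDAMB468 and 23 in CAL51.

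**Figure D2:**
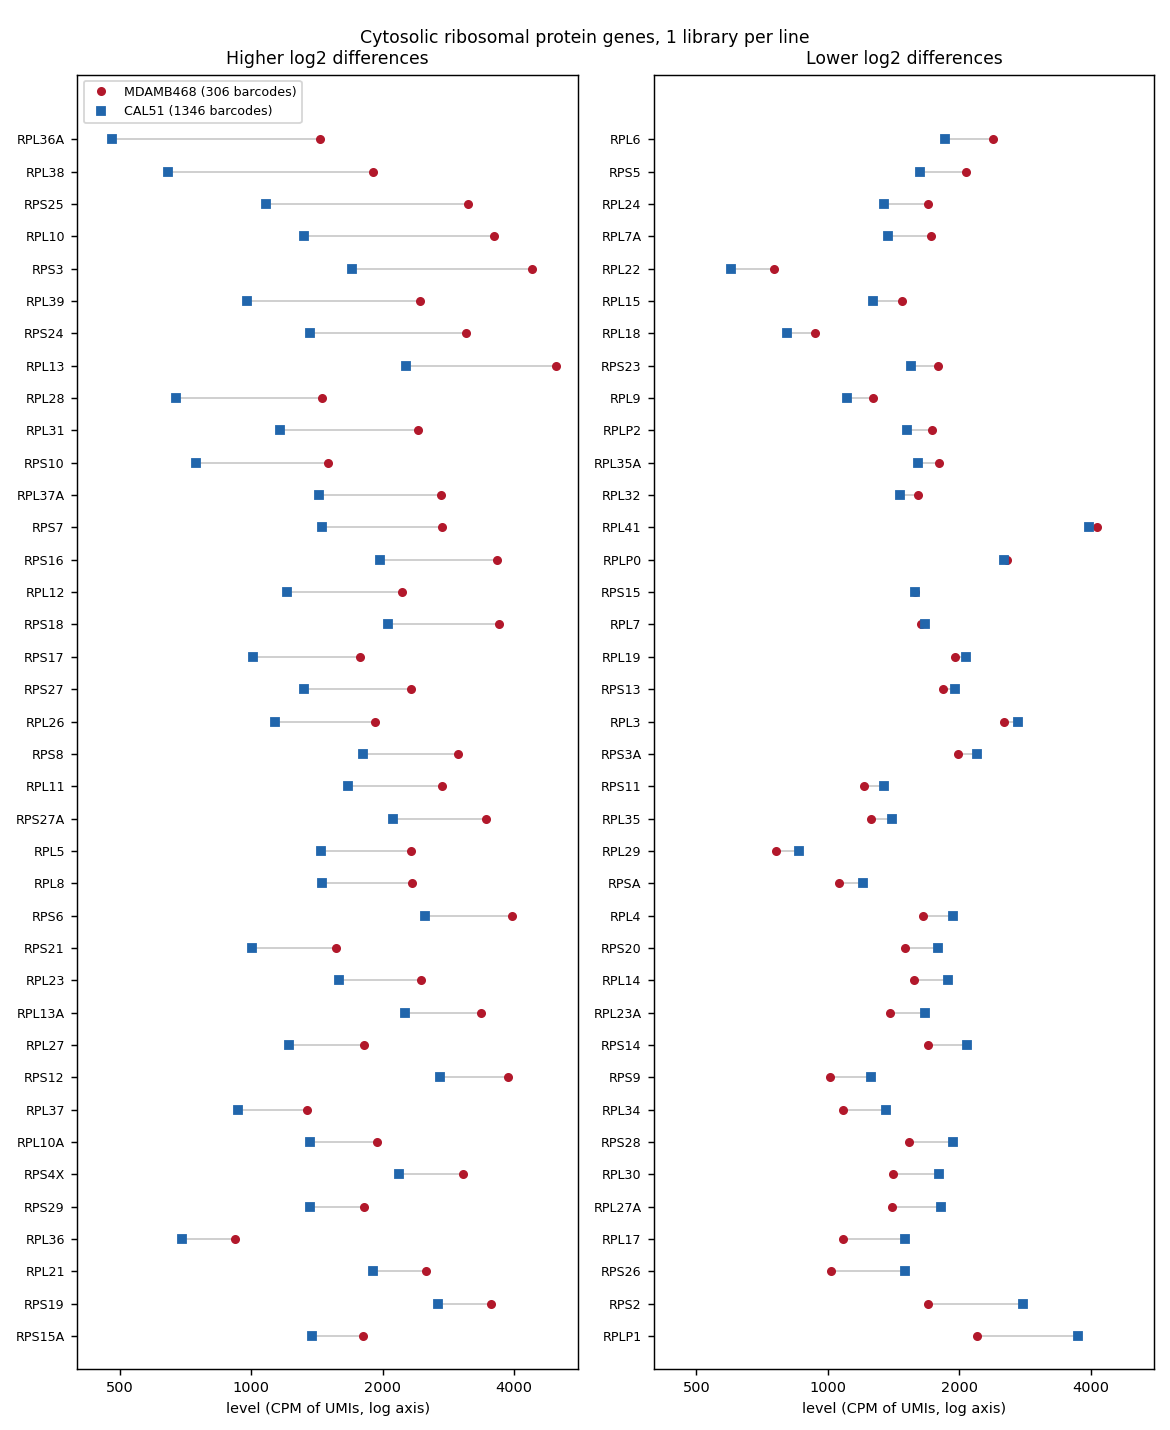
Level of 76 measured members in MDAMB468 (circles) and CAL51 (squares), in CPM of UMIs on a log axis, ordered by log2 difference from the top left to the bottom right. RPL36A, RPL38 and RPS25 have the widest gaps toward MDAMB468, and RPLP1 and RPS2 the widest toward CAL51.

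A reading of single members has to be set beside the copies, because member levels in barcodes of the same sequence differed between the libraries about as widely as between the lines. The SD over the 77 members of the log2 difference was 0.66 between the copies and their partners, and 0.57 between the partners and the other CAL51 barcodes. Against their partners, 9 members (11.7%) were at least 1.5-fold higher in the copies and 23 (29.9%) at least 1.5-fold lower, where 20.1% and 19.9% of the features at 100 CPM were. Against the other CAL51 barcodes, 17 members (22.1%) were at least 1.5-fold higher in the copies and 11 (14.3%) at least 1.5-fold lower, where 22.3% and 33.5% of the features at 100 CPM were. The members' median was 0.15 in that comparison and 0.33 for the partners against the same CAL51 barcodes. Some members with short coding sequences were lower in the copies than in the partners, such as RPL38 (210 bases, log2 difference -1.65) and RPL36A (318 bases, -1.27). Some with long ones were higher, such as RPL8 (771 bases, 1.40) and RPS2 (879 bases, 1.04). Others departed from this order, such as RPSA (885 bases, -0.97) and RPL5 (891 bases, -0.64). The single-member readings below include such differences. What sets the levels of the copies and partners apart was not tested. Both comparisons with CAL51 use the same CAL51 barcodes. The copies also share their barcode sequences with MDAMB468 barcodes, and whether they hold RNA of other cells was not tested. The values below are therefore set side by side and not as separate evidence.

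The 6 highest differences belonged to proteins from different regions of the ribosome. RPL36A, a large subunit protein near the tRNA exit site, stood at 1441 CPM in MDAMB468 and 481 CPM in CAL51, a 2.996-fold difference (2.90 to 3.09). In the CAL51-labelled copies it stood at 599 CPM, 1.25 times the CAL51 level (0.99 to 1.55). The gap in RPL36A was thus near 3-fold between libraries and not separable from 1 within the library labelled CAL51.

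RPL38, a large subunit protein known for its part in the translation of Hox messenger RNAs in mouse embryos, stood at 1905 CPM in MDAMB468 and 644 CPM in CAL51, a 2.96-fold difference (2.88 to 3.04). In the copies RPL38 was at 599 CPM, 0.93 times the CAL51 level (0.74 to 1.16), while their MDAMB468 partners held 1888 CPM. For RPL38, then, the difference between the libraries was not seen within the library labelled CAL51. RPS25, a small subunit protein needed for initiation at several viral internal entry sites, stood at 3140 and 1079 CPM, a 2.91-fold difference (2.85 to 2.97), and at 1464 CPM in the copies, 1.36 times CAL51 (1.17 to 1.56).

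RPS3 and RPL10 kept a larger part of their difference in the copies. RPS3, which lines the entry of the messenger RNA channel, stood at 4402 CPM in MDAMB468 and 1706 CPM in CAL51, a 2.58-fold difference (2.54 to 2.625). Its level in the copies was 5738 CPM, 3.36 times CAL51 (3.13 to 3.61). RPL10, a late-joining protein close to the peptidyl transferase centre, stood at 3603 and 1322 CPM, 2.73-fold apart (2.67 to 2.78), and at 2411 CPM in the copies, 1.82 times CAL51 (1.63 to 2.04). RPL39, a small protein of the peptide exit tunnel, stood at 2433 and 977 CPM, 2.49-fold apart (2.43 to 2.55), and at 1264 CPM in the copies, 1.29 times CAL51 (1.11 to 1.504).

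Members at 2-fold or more toward MDAMB468 also included RPL13, RPS24, RPL28, RPL31 and RPS10, named here after their values were seen except for RPL13. RPL13, a large subunit protein, had the most UMIs of any member in MDAMB468, with 4996 CPM against 2270 CPM in CAL51, 2.20-fold apart (2.17 to 2.24), and 4178 CPM in the copies. RPS24, mutated in some families with Diamond-Blackfan anaemia, stood at 3115 and 1361 CPM and at 3150 CPM in the copies. For RPL13 the copies lay at 1.84 times the CAL51 level and for RPS24 at 2.31 times (2.10 to 2.55). For RPL28, RPL31 and RPS10 they lay at 1.15 (0.94 to 1.40), 1.44 (1.26 to 1.65) and 1.32 (1.11 to 1.57) times that level, with RPL28 not separable from 1.

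At the other end, the stalk protein RPLP1 had the largest difference toward CAL51. RPLP1 and RPLP2 form dimers that bind RPLP0 and recruit the GTPases of elongation. RPLP1 stood at 2197 CPM in MDAMB468 and 3737 CPM in CAL51, 1.70-fold higher in CAL51 (1.67 to 1.73), and at 2351 CPM in the copies, 0.63 times CAL51 (0.56 to 0.70). RPLP1 was therefore lower than in CAL51 in both readings. Of the other stalk proteins, RPLP2 stood at 1731 and 1521 CPM (log2 difference 0.19) and at 1264 CPM in the copies, 0.83 times CAL51 (0.71 to 0.97), so that its direction differed between the readings. RPLP0 stood at 2567 and 2528 CPM (0.02, with a fold interval of 0.996 to 1.04) and at 2832 CPM in the copies, 1.12 times CAL51 (1.01 to 1.24).

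RPS2, a small subunit protein at the messenger RNA entry, stood at 1696 CPM in MDAMB468 and 2797 CPM in CAL51, 1.65-fold higher in CAL51 (1.61 to 1.69). In the copies RPS2 was at 2972 CPM, 1.06 times CAL51 (0.96 to 1.17), so its difference between the libraries was not seen within the library labelled CAL51. RPS2 also varied most between barcodes in both lines: the variance over the mean of its thinned counts was 2.25 in MDAMB468 and 1.68 in CAL51, where the median member had 1.22 in both. RPS26, which sits at the messenger RNA exit, stood at 1015 and 1503 CPM, 1.48-fold higher in CAL51 (1.44 to 1.52), and at 821 CPM in the copies.

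RPL17, RPL27A and RPL30 complete the 6 lowest differences. RPL17, a protein of the exit tunnel, stood at 1084 CPM in MDAMB468, 1501 CPM in CAL51 and 525 CPM in the copies, where it was 0.35 times CAL51 (0.27 to 0.44). RPL27A, a large subunit protein, stood at 1399, 1813 and 1279 CPM in the same order, and RPL30, which in yeast regulates the splicing of its own transcript, at 1410, 1795 and 1294 CPM. All 3 were lower than in CAL51 in both readings.

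**Figure D3:**
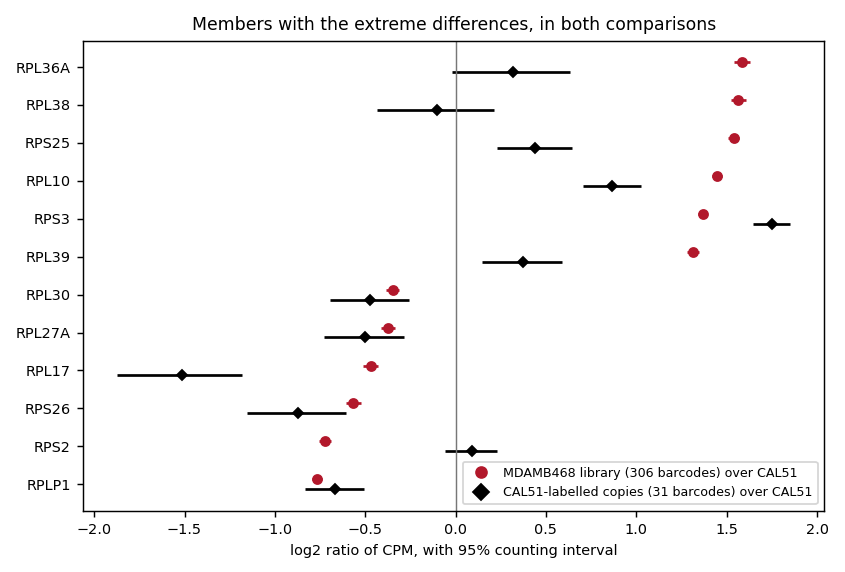
Log2 ratio of CPM to the CAL51 barcodes for the 6 highest and 6 lowest members, for the whole MDAMB468 library (circles) and for the 31 CAL51-labelled copies (diamonds), with 95% counting intervals as lines. RPL36A, RPL38 and RPS2 have copies whose interval spans 0, and RPS3 has copies above the MDAMB468 value.

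Some other members had levels in the copies outside the range of both lines, again named after their values were seen. RPL18 stood at 935 CPM in MDAMB468, 806 CPM in CAL51 and 3224 CPM in the copies, and RPL19 at 1960, 2071 and 4370 CPM. RPL8, with 2340 and 1454 CPM in the lines, reached 5945 CPM in the copies. RPS29 went the other way, with 1814, 1366 and 769 CPM, and RPL34 with 1084, 1359 and 592 CPM.

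Among members with a role outside the ribosome's catalytic core, RPL5 and RPL11 form a particle with the 5S ribosomal RNA that can bind MDM2 when ribosome assembly is disturbed. RPL5 stood at 2326 CPM in MDAMB468 and 1445 CPM in CAL51 (log2 difference 0.69), and RPL11 at 2739 and 1665 CPM (0.72). Both lay above the family median by a similar amount. In the copies RPL11 stood at 2573 CPM, 1.55 times CAL51, and RPL5 at 1412 CPM, 0.98 times CAL51 (0.84 to 1.13), so only RPL11 of the pair differed from CAL51 beyond counting error there.

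RPS6, the small subunit protein phosphorylated by the S6 kinases, stood at 3965 and 2502 CPM (0.66). RPS19, the gene most often mutated in Diamond-Blackfan anaemia, stood at 3540 and 2682 CPM (0.40), at the family median. RPS14, whose loss on chromosome 5 marks a myelodysplastic syndrome, stood at 1696 and 2083 CPM (-0.30). RPSA, also known as a laminin receptor, stood at 1060 and 1203 CPM (-0.18). RPL15, a large subunit protein, stood at 1477 and 1272 CPM (0.22). These 5 members thus span both sides of the family median. In the copies RPS6 stood at 3682 CPM, RPS19 at 3017, RPS14 at 1959, RPL15 at 1656 and RPSA at 562, and RPSA had the lowest ratio to CAL51 of the 5, 0.47 (0.37 to 0.58).

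By level, RPL41, the shortest of the ribosomal proteins, had 4141 CPM in MDAMB468 and 3975 CPM in CAL51, where it ranked first of the family. RPS12, of the small subunit, had 3886 and 2704 CPM. The measured members with fewest UMIs were RPL22, an RNA-binding protein of the large subunit, with 751 and 601 CPM, RPL36A, and RPL36, a large subunit protein, with 917 and 693 CPM. RPL41 was among the members whose sign depended on the scaling: its log2 difference of 0.06 became -0.073 with TMM scaling, -0.086 with median-of-ratios scaling and -0.071 with equal weight per barcode.

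Fusions with ubiquitin or a ubiquitin-like protein are another group of ribosomal proteins. RPS27A, a fusion of ubiquitin and a small subunit protein, stood at 3447 and 2108 CPM (0.71). FAU, a fusion of a ubiquitin-like protein and a small subunit protein, stood at 1450 and 947 CPM (0.61). RACK1, a scaffold bound to the small subunit, stood at 2369 and 1238 CPM (0.94). All 3 genes were higher in MDAMB468, and FAU and RACK1 belong to the ribosome but fall outside the symbol rule.

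Several members have a paralog, and in some pairs the paralog's share of the pair's UMIs differed widely between the lines. RPL22L1 had 213 CPM in MDAMB468 and 754 CPM in CAL51, which made 22.1% (21.0 to 23.2) of the RPL22 and RPL22L1 pair in MDAMB468 and 55.6% (55.0 to 56.3) in CAL51. In CAL51 the paralog thus had more counted molecules than RPL22. RPS27L, a known target of p53, had 108 and 637 CPM, which made 4.46% (4.11 to 4.82) and 32.5% (32.0 to 33.0) of its pair with RPS27. RPL36AL had 374 and 456 CPM, which made 20.6% (19.8 to 21.4) and 48.7% (47.9 to 49.5) of its pair with RPL36A. In this pair the paralog differed little (log2 difference -0.29), and the share follows mainly the difference of RPL36A (1.58) given above. RPL22L1 (-1.82) and RPS27L (-2.54) differed more themselves.

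The same 3 shares in the CAL51-labelled copies lay between those of the lines. RPL22L1 held 36.5% (26.9 to 46.9) of 96 UMIs there, RPL36AL 31.9% (23.7 to 41.1) of 119 and RPS27L 21.7% (16.2 to 28.1) of 198. For each of the 3 pairs the interval of the copies excluded the value of both lines. RPL39L, described as testis-enriched, held 1.999% and 5.62% of its pair and 10.47% in the copies, RPL26L1 7.89%, 10.4% and 18.0%, and RPL7L1 11.1%, 9.54% and 6.15%. RPL3L, a muscle form, and RPL10L, a testis form that is itself a member, had 0 UMIs in MDAMB468 and 1 UMI each in CAL51.

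**Figure D4:**
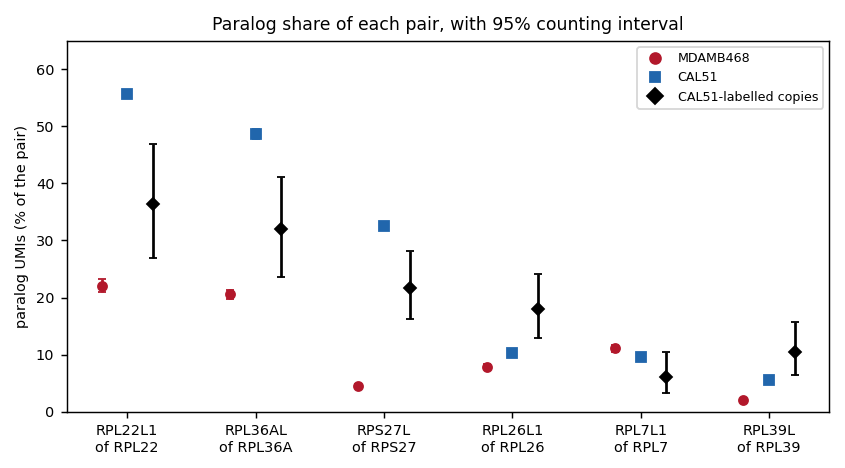
Percent of a pair's UMIs that fell on the paralog, for 6 pairs in MDAMB468 (circles), CAL51 (squares) and the CAL51-labelled copies (diamonds), with 95% counting intervals. The paralogs RPL22L1, RPL36AL and RPS27L take larger shares in CAL51 than in MDAMB468, with the copies between.

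How far reads can tell these pairs apart depends on their sequence, so the first 60 coding bases (GENCODE 29 transcripts) are shown for 2 pairs, with capitals at the bases that differ.
RPL36A: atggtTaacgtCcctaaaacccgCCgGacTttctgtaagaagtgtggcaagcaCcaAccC
RPL36AL: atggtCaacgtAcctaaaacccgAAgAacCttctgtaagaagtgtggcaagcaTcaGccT
RPS27: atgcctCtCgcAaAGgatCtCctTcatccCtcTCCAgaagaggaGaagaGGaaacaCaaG
RPS27L: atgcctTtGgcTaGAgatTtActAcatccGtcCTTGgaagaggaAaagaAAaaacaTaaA
Over the whole coding sequence RPL36A and RPL36AL were 89.9% identical, with a longest shared run of 63 bases in the whole transcripts, and RPS27 and RPS27L 77.8% identical, with a longest run of 20 bases. RPL39 and RPL39L were the closest pair at 94.8%, with a run of 67 bases, and RPL22 and RPL22L1 were 67.7% identical, with a run of 17 bases. How the authors' counting divided reads that fit both copies is not recorded in the labels or files read here, so values of the closest pairs are uncertain.

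RPL10 stood apart through a processed pseudogene, RPL10P9 (ENSG00000233913, chr5:168616352-168616996, plus strand, GENCODE 29 on GRCh38), which was chosen with its values in view. It had 9590 UMIs in MDAMB468 and 63 in CAL51, or 1743 and 3.88 CPM, a 449-fold difference (350.5 to 584.6). UMIs on RPL10P9 were present in 293 of 306 MDAMB468 barcodes and 61 of 1346 CAL51 barcodes, with at most 2 in any CAL51 barcode. Of the UMIs on RPL10 and RPL10P9 together, the pseudogene took 32.6% (32.1 to 33.1) in MDAMB468 and 0.293% (0.225 to 0.375) in CAL51. In the copies it took 7.91% (5.32 to 11.2) of 354 UMIs.

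RPL10P9 is 98.9% identical to the 642 coding bases of RPL10. Counted from the A of the RPL10 start codon, the substitutions from RPL10 to RPL10P9 in the reference are C19T, G141A, C277T, G376T, T392C, C457G and G605A. The last 60 coding bases before the stop codon, bases 583 to 642, are shown because 3′ reads lie nearest to them, with the single differing base in capitals.
RPL10: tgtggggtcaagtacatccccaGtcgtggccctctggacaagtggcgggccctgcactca
RPL10P9: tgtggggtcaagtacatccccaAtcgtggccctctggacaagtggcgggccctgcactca
Whether the UMIs on RPL10P9 came from the pseudogene's own transcript or from RPL10 transcripts was not tested. With both features summed, the level was 5347 CPM in MDAMB468 and 1326 CPM in CAL51, a 4.03-fold difference (3.96 to 4.11), larger than that of RPL10 alone and of any other member.

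**Figure D5:**
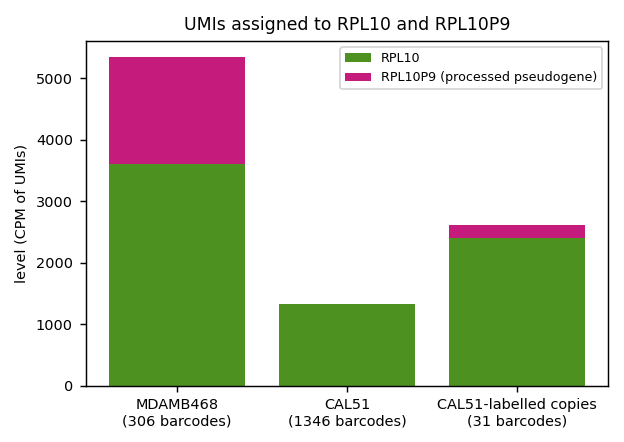
Level in CPM of UMIs assigned to RPL10 and to its processed pseudogene RPL10P9, stacked, in MDAMB468, CAL51 and the 31 CAL51-labelled copies. The pseudogene adds 1743 CPM in MDAMB468, 3.88 CPM in CAL51 and 207 CPM in the copies.

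Across the family, 969 features are named as pseudogenes of 76 members. They took 43692 UMIs in MDAMB468 and 42929 in CAL51, which is 4.62% and 2.09% of member and pseudogene UMIs together, or 3.64% and 2.08% without RPL10P9. With pseudogene counts added to their members, RPL10 had a log2 difference of 2.05, and the sign of RPL3, a large subunit protein of the peptidyl transferase region, went from -0.11 (2527 and 2725 CPM) to 0.01. RPL7, a large subunit protein with 1631 and 1669 CPM, went from -0.03 to 0.01.

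Position in the genome was described with up to 5 nearest measured genes on each side, which gave 10 neighbours for each member except RPL35A, near a chromosome end, with 6. The member lay above the median of its neighbours in 67 of 77 cases, above all of them in 11 and below all of them in 0. The same counts were not made for all features. The members' median difference (0.39) was above that of all features (-0.13), so these counts partly restate the shift of the family. The rho between a member's difference and its neighbours' median was 0.50 over 77 members, some of which share neighbours. RPL36A (1.58) lay above all 10 neighbours, whose median was 0.05, and RPL38 (1.56) and RPS25 (1.54) had neighbour medians of -0.02 and 0.13. RPL10 (1.45) and RPS3 (1.37) had neighbours that were themselves higher in MDAMB468, with medians of 1.10 and 0.79, and RPLP1 (-0.77) had a neighbour median of -0.98. RPL17 (-0.47) lay in a stretch with a median of -1.94.

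The 4 members on the X chromosome, RPL36A, RPL10, RPL39 and RPS4X, had a median difference of 1.38. RPS4X, the X-linked copy of a small subunit protein, stood at 3065 and 2186 CPM (0.49) and at 4474 CPM in the copies. Chromosome 19 held 12 measured members with a median of 0.38, and chromosome 3 held 7 with a median of 0.14. Transcript properties showed little relation to the difference: rho was 0.06 with GC content, -0.08 with transcript length and -0.06 with coding length over the 77 members.

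RPS27, which binds zinc and carries the paralog described above, stood at 2321 CPM in MDAMB468 and 1322 CPM in CAL51 (0.81), and RPL26, known to bind the p53 messenger RNA, at 1917 and 1137 CPM (0.75). In the copies RPS27 was at 1146 CPM, 0.87 times CAL51 (0.74 to 1.01), and RPL26 at 1213 CPM, 1.07 times CAL51 (0.91 to 1.24). Both differences between the libraries were thus not seen within the library labelled CAL51.

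Other genes of the translation machinery were described from lists, to be read against the 24.6% of all features at least 1.5-fold higher in MDAMB468 and the 31.7% in CAL51. The first list holds 20 genes, most of them translation factors, with some of other roles such as NAP1L1 and HNRNPA1. Of these 20, 8 (40%) were at least 1.5-fold higher in MDAMB468 and 3 (15%) in CAL51, with a median of 0.33. They ran from EEF1G, a subunit of the elongation factor exchange complex (157 and 44.3 CPM, 1.81), to NAP1L1, a histone chaperone (522 and 947 CPM, -0.86). EEF1A1, the most abundant of these genes in CAL51 and the factor that brings aminoacyl-tRNA, stood at 4248 and 5413 CPM (-0.35).

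Of 35 ribosome biogenesis genes, 4 (11.4%) were at least 1.5-fold higher in MDAMB468 and 6 (17.1%) in CAL51, with a median of 0.03. They ran from DKC1, the pseudouridine synthase (427 and 169 CPM, 1.34), to TCOF1, a nucleolar factor of ribosomal RNA transcription (70.0 and 139 CPM, -0.98). Of 77 mitochondrial ribosomal protein genes, 17 (22.1%) and 16 (20.8%) were, with a median of 0.06, from MRPS17 (327 and 68.6 CPM, 2.23) to MRPL52 (102 and 210 CPM, -1.04). The medians of the last 2 lists fell below 0 with TMM and median-of-ratios scaling. Of 12 regulators of ribosomal protein synthesis, 1 (8.33%) was at least 1.5-fold higher in MDAMB468 and 4 (33.3%) in CAL51, with a median of -0.35, and MTOR, the growth kinase, stood at 11.5 and 20.6 CPM (-0.79). The cytosolic ribosomal proteins, with a median of 0.39, thus lay closer to the mixed list of translation factors and other genes than to the other 3 lists.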

How the data were processed

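The authors deposited 1 matrix of raw UMI counts, genes by barcodes. Per the submitters' processing notes STARsolo was among the tools; its settings, the build and the annotation were not given in the sources used here. Counts were summed per line by barcode prefix (pandas 2.3.3 and scipy 1.17.1 under Python 3.11.15) and scaled to CPM of the line's total. Differences used log2(CPM + 1), which understates differences of features with few counts. Sums carry exact Poisson, shares exact Clopper-Pearson and folds exact conditional intervals. The fold intervals and the recovery of known folds were tested on simulated counts. These held counting error only, which is what the fold intervals assume, so the test does not cover the added variation between barcodes. The other intervals were not tested. TMM factors came from edgeR 4.0.16 in R 4.3.3, as an alternative scaling only. Symbols were found for 30730 of 30796 features and GENCODE 29 positions for 29416; this annotation may differ from the authors'.

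Named members are the 6 highest and 6 lowest differences with 100 UMIs or more in the higher line and a stable side of the family median over all settings, the 4 members with most and the 4 with fewest UMIs, and members fixed by role. The members and lists were chosen with earlier results of these data known. The comparison with the shared barcodes, the paralog shares under other settings and RPL10P9 were added after the data were seen. Paralogs were compared as coding sequences (the APPRIS principal transcript), and protein sequences were not used here. Some genes that this rule names are not reported here by name, and 76 of the 77 measured members are plotted. No doublet caller was run, and every deposited barcode had at least 2501 UMIs.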

Additional observations from a re-analysis of the deposited data

Results flagged for a closer look

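The 31 barcodes labelled CAL51 whose sequence also occurs in the MDAMB468 library were outside the comparison of the lines. Members took 15.4% of their 135240 UMIs, above the 12.4% of the other CAL51 barcodes. The mitochondrial share of these barcodes had a median of 6.08%, against 4.25% in CAL51 and 6.04% in MDAMB468.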

How the results depend on the processing

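The members' median log2 difference stayed above 0 under all 11 alternatives. It was 0.26 with TMM scaling, 0.24 with median-of-ratios scaling, 0.49 with totals that leave out mitochondrial and ribosomal protein genes and 0.34 with equal weight per barcode, where all features moved to -0.24, -0.25, -0.04 and -0.18. Members at least 1.5-fold higher in MDAMB468 numbered 20 to 34, and those higher in CAL51 4 with TMM and 4 with median-of-ratios scaling. The members' share in MDAMB468 was 16.5% without satellites, 16.4% in barcodes with at least 10000 UMIs, 16.3% with equal weight per barcode and 17.2% with pseudogenes added. In CAL51 it was 12.4% with the shared barcodes kept and 12.7% with pseudogenes added. The sign was the same in every setting for 69 members, positive for 50 and negative for 19. The median turned to -0.10 (TMM) and -0.11 (median of ratios) for ribosome biogenesis genes and to -0.073 and -0.085 for mitochondrial ribosomal proteins. RPL41 turned to -0.073 (TMM), -0.086 (median of ratios) and -0.071 (equal weight per barcode), and RPL3 to 0.011 with equal weight per barcode and 0.011 with pseudogenes added. Apart from changes made by the scaling or the counting itself, the cause was not tested. No paired analysis was possible because each line had 1 library, and no library could be left out. The UMIs of the copies (135240) limit single members there to intervals such as 0.74 to 1.16 for RPL38.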
